A study of Homo sapiens with 4 samples.

Results

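Semaphorins, plexins, neuropilins, SLITs, ROBOs, netrins, UNC5 receptors, DCC and NEO1 were described in endometrial cancer cells that carry a mutant estrogen receptor. The genes were taken by symbol, which gave 50 of the 26364 gene symbols in the count table: 20 semaphorins, 9 plexins, 2 neuropilins, 3 SLITs, 4 ROBOs, 4 netrins, 2 netrin G genes, 4 UNC5 genes, and DCC and NEO1. The symbol rule used no measured value, but the families were chosen with earlier results of these data known. A low-count filter kept 41 of the 50 for testing, and 49 had at least 1 count in some library.

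These genes encode the guidance cues and receptors best known for steering axons. Semaphorins signal through plexins, and most secreted semaphorins (the SEMA3 group) also need a neuropilin as coreceptor. SLITs are secreted repellents that bind ROBO receptors, and secreted netrins bind DCC, its relative NEO1 (neogenin) and the UNC5 receptors. In epithelia and their tumors the same pairs act in cell adhesion, migration and vessel growth.

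Ishikawa cells are a human endometrial adenocarcinoma line, and every library came from cells with the Y537S substitution in ESR1, the gene for estrogen receptor alpha; the mutant receptor is known for activity without hormone. The labels name 2 mutant clones, each kept in medium stripped of hormones for at least 5 days. Estradiol (E2, 10 nM) or its vehicle, 0.1% DMSO, was then added for 8 h. This gave 4 libraries in 2 groups of 2, with 1 library for each clone and treatment. The table's columns carry a tag, A4 or B212, that could not be tied to the clone numbers of the labels, so libraries are named by tag. Cells without the mutation were not analysed here, so nothing below compares mutant with wild-type receptor. Each tag stands for cells grown from a single clone, and separate cultures are not described. P-values thus measure only the spread between these 4 libraries that the model leaves over, and not the spread among further clones.

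Library totals ran from 71575816 to 85222856 counts. ESR1 had 110 CPM (A4) and 107 CPM (B212) with DMSO and 97.0 CPM (A4) and 86.5 CPM (B212) with E2, where CPM is the count scaled to a common library size by the trimmed mean of M values. All 7 epithelial markers were detected, with a sum of 2204 to 2956 CPM per library. Markers of other cell types summed to 2.18 to 4.99 CPM (endothelial, 5 genes, mostly VWF), 1.64 to 2.45 CPM (immune, 5 genes) and 9.54 to 11.5 CPM (neuronal, 6 genes, mostly TUBB3). Among those lists, 1 endothelial, 2 immune and 2 neuronal markers had no count in any library. ALPP, a phosphatase known from Ishikawa cells, had 20.8 and 24.9 CPM in A4 and 8.24 and 14.5 CPM in B212. The stromal and endothelial markers that moved with a comparison are given beside it.

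The ligands spanned a wide range of levels, which were compared between genes only as CPM per kilobase of transcript. SEMA3C, a secreted semaphorin, was at 79.8 (DMSO) and 76.0 (E2) CPM per kilobase in A4 and at 36.4 and 27.3 in B212. SEMA3A, the classic collapsing factor for growth cones, was at 45.5 and 47.5 CPM per kilobase in A4 and 47.0 and 45.3 in B212. SEMA3A thus lay below SEMA3C in A4 and above it in B212. SLIT2 was at 44.9 and 35.6 CPM per kilobase in A4 and 34.2 and 24.9 in B212. It lay below SEMA3C in every library, though the ranges across libraries overlapped. SLIT3 followed at 14.3 to 15.0 CPM per kilobase, in the same range as SEMA3B (14.0 to 17.6), SEMA4B (10.1 to 15.1), SEMA3F (10.8 to 13.6) and SEMA4D (9.43 to 12.2). NTN1 (netrin-1) was lower, at 2.87 to 3.68 CPM per kilobase, and NTN4 at 0.770 to 1.28. SLIT1 was at 0.0488 to 0.0846 CPM per kilobase.

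Receptor levels were uneven between partners of those ligands. PLXNB2, a plexin that binds SEMA4 ligands, was the most abundant receptor at 19.2 to 28.1 CPM per kilobase, above PLXNA1 (5.56 to 10.2), PLXND1 (6.58 to 9.61) and PLXNB1 (3.69 to 4.91). ROBO1 was at 7.22 to 9.80 CPM per kilobase, in the range of PLXNA1 and PLXND1, whereas ROBO2 was at 0.309 to 0.634. NEO1 was at 5.80 to 7.64 CPM per kilobase. Its relative DCC had 1 count in each B212 library and none in A4. The neuropilins, coreceptors of the secreted semaphorins, were low: NRP1 was at 0.179 and 0.261 CPM per kilobase in A4 and at 0.00398 and 0.0116 in B212, and NRP2 was at 0.0545 to 0.112 in the 4 libraries. UNC5B (0.501 to 1.32) and UNC5C (0.303 to 0.473) were the UNC5 genes that passed the filter.

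Of the 41 tested genes, 18 reached 10 CPM in every library and 5 reached 100 CPM (SEMA3A, SEMA3C, PLXNB2, SLIT2 and SLIT3), while 8 stayed under 1 CPM in every library. The 9 genes that failed the filter were SEMA5A, SEMA5B, PLXNA2, ROBO4, NTN3, NTNG2, DCC, UNC5A and UNC5D. They had at most 13 counts in a library, and ROBO4, an endothelial ROBO, had none. The plot of levels per kilobase shows these ranges library by library.

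**Figure D1:**
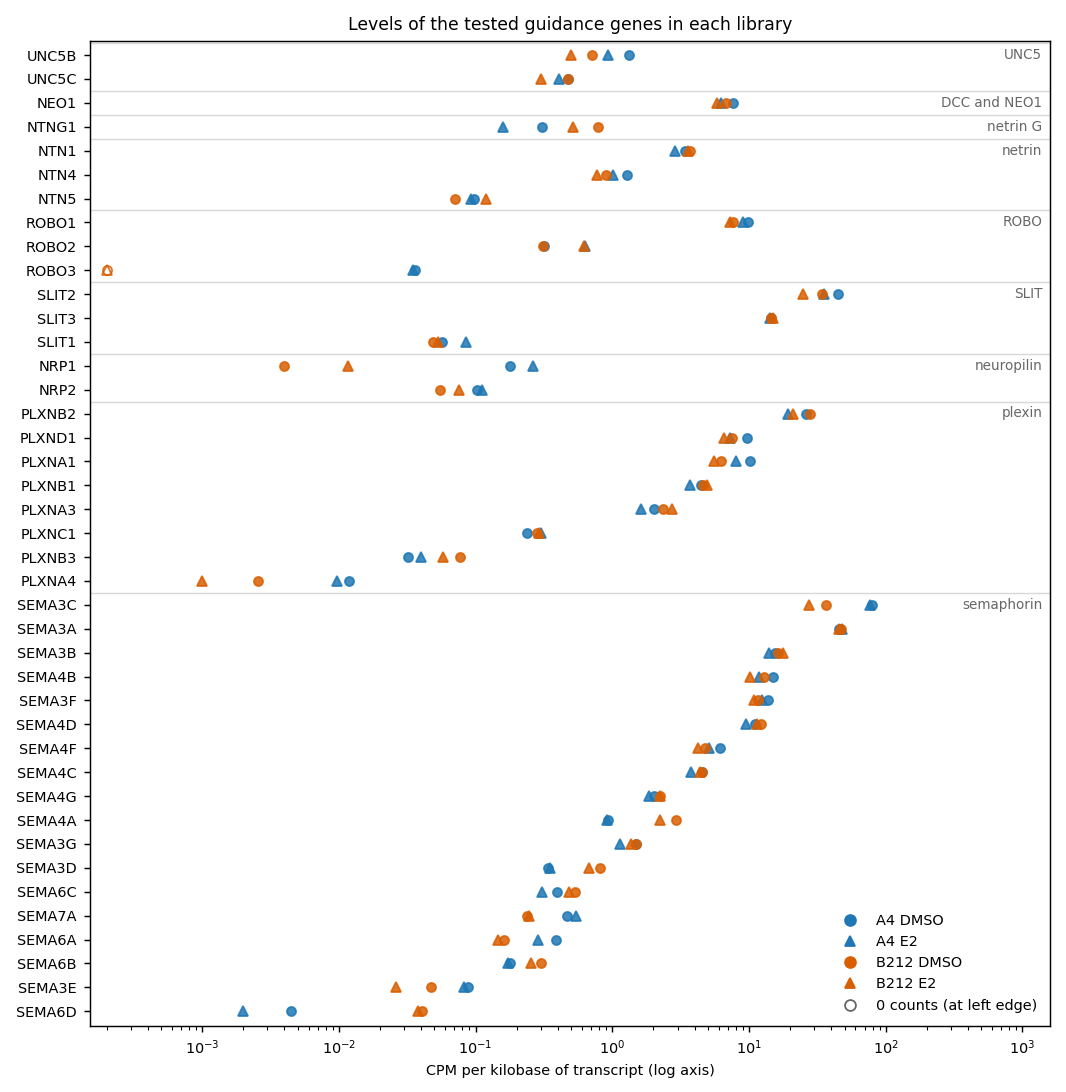
Level of each of the 41 tested guidance genes, as CPM per kilobase of transcript on a log axis, 1 point per library (blue A4, orange B212; circles DMSO, triangles E2), grouped by family. SEMA3C, SEMA3A and SLIT2 lie highest, both neuropilins lie under 0.262 CPM per kilobase, and ROBO3 has 0 counts in B212, drawn open at the left edge.

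The first comparison asked which guidance genes changed with E2 in cells that carry the mutant receptor. ROBO2, a receptor for SLIT ligands, was about 2-fold higher with E2 in both tags, and SLIT2, PLXNB2, PLXND1, PLXNA1, SEMA4B, NEO1, UNC5B and NTNG1 were lower in both. These 9 genes passed the test only when the tag entered the model as a block. Without that block, 0 of the 41 genes passed edgeR's quasi-likelihood test, and 0% of all 15599 genes tested. ROBO2 and PLXNB2 were the 2 of the 41 whose unadjusted p lay below 0.05, and DESeq2 run the same way also called 0 of the 41. Once the tag was blocked, 1 of the 41 was called higher and 8 lower at a Benjamini-Hochberg adjusted p under 0.05, that is 9 of 41 beside 9.56% of all genes tested. For calls in the lower direction the background was 3.44%, and for calls in the higher direction 6.13%. The verbs rose and fell below refer to the fit with the block.

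Among the receptors of SLITs, ROBO2 had 2.83 CPM (DMSO) and 5.67 CPM (E2) in A4 and 2.77 CPM and 5.59 CPM in B212. In raw counts this was 207 and 465 in A4 and 236 and 410 in B212. Both E2 libraries lay above both DMSO libraries, and the tags gave nearly the same level under each treatment. ROBO2 rose by 1.01 ± 0.13 (log2 fold change, SE) with an edgeR adjusted p of 0.000222, a 2.01-fold change in A4 and 2.02-fold in B212. With no block the log2 fold change was 1.01 ± 0.23, and its range when each library was left out was 0.98 to 1.03. Those fits had no tag term, and ROBO2 differed little between the tags (-0.025), so the narrow range adds little. DESeq2 with the block gave no adjusted p for ROBO2, NTNG1 or UNC5B, and NEO1 and PLXNA1 did not pass it. ROBO1, the abundant receptor of the same family, had 73.5 and 67.4 CPM in A4 and 57.6 and 54.1 CPM in B212, a log2 fold change of -0.11 ± 0.072 (edgeR adjusted p = 0.371 with the block). ROBO3 had 12 and 13 counts in A4 and none in B212.

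SLIT2, the abundant SLIT, had 287 CPM (DMSO) and 228 CPM (E2) in A4 and 218 CPM and 159 CPM in B212. The E2 library was the lower of the pair in each tag, though the E2 library of A4 lay above the DMSO library of B212. SLIT2 fell by 0.39 on the log2 scale (SE 0.071), with an edgeR adjusted p of 0.00241. SLIT3 had 140 and 139 CPM in A4 and 141 and 145 CPM in B212, with a log2 fold change of 0.016 ± 0.069 and an edgeR adjusted p of 0.914. SLIT1, at 31 to 55 counts per library, had a log2 fold change of 0.37 ± 0.31, and its edgeR adjusted p was 0.502.

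Promoter sequences are shown for ROBO2, the gene that rose, and for SLIT2 and PLXNB2, the called genes with the highest levels, so that the letters of the estrogen response element can be looked for. They are RefSeq windows on GRCh38.p14, from 250 bases before to 50 bases after a gene start, read 5′ to 3′ on the gene's strand. ROBO2 has 2 such windows on the plus strand, at chr3:76310630-76310929 and chr3:77039849-77040148. The SLIT2 window is chr4:20251655-20251954 on the plus strand and that of PLXNB2 is chr22:50301620-50301919 on the minus strand. Capitals mark single arms of the estrogen response element (GGTCA, or TGACC on the other strand) and SP1 boxes (GGGCGG, or CCGCCC on the other strand); in SLIT2 an SP1 box runs straight into an arm.
ROBO2 upstream start: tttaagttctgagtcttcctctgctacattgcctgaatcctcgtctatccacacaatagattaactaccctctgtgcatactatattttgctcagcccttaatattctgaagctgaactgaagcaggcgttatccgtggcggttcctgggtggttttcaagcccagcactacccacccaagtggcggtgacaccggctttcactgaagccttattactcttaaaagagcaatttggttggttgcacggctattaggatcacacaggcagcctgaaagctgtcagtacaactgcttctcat
ROBO2 downstream start: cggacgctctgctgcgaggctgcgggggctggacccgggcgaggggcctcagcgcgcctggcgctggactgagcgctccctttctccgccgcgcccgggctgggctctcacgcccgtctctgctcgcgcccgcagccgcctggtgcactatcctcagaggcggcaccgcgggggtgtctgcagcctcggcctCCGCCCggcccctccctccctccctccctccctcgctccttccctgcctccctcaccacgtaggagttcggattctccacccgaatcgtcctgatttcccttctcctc
SLIT2: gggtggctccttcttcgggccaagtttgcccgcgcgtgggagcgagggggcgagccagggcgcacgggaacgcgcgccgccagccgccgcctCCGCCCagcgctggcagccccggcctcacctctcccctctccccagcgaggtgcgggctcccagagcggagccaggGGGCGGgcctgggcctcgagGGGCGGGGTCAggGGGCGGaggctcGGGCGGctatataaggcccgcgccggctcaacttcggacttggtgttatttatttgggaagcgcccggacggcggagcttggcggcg
PLXNB2: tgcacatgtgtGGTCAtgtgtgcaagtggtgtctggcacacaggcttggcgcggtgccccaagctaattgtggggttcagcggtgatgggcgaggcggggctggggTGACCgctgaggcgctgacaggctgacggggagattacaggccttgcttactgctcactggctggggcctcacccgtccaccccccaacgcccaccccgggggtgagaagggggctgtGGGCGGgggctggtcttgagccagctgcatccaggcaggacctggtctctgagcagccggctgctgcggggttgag
The full element, GGTCA and TGACC with 3 bases between them, searched on both strands, was in none of the 69 guidance gene windows. It was in 20 of all 35116 windows (0.0570%). The 69 windows belong to the 41 of all 50 guidance genes that matched the RefSeq table, a set not picked by the count filter. A single arm was in 30 of the 69 windows (43.5%, against 37.4% of all windows) and an SP1 box in 45 (65.2%, against 45.0%). Neither ROBO2 window held a single arm, the SLIT2 window held 1 and the PLXNB2 window held 2. These are matches of letters in 300 bases and not evidence for or against binding of the receptor.

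Plexins are the main semaphorin receptors, and 3 of the 8 tested fell with E2, beside 3.44% of all genes called lower. PLXND1 and PLXNA1 lost the call in the fit given below that also removes a length and GC trend. PLXNB2 had 167 CPM (DMSO) and 122 CPM (E2) in A4 and 180 CPM and 133 CPM in B212, so both E2 libraries lay below both DMSO libraries. It fell by 0.44 on the log2 scale (SE 0.068), with an edgeR adjusted p of 0.000963. PLXND1, a receptor of vessel patterning, had 68.2 and 51.3 CPM in A4 and 53.4 and 46.7 CPM in B212. Its E2 libraries again lay below its DMSO libraries, with a log2 fold change of -0.30 ± 0.078 and an edgeR adjusted p of 0.0197. PLXNA1, which pairs with neuropilins, had 92.1 and 72.8 CPM in A4 and 56.2 and 50.4 CPM in B212. There the tags lay further apart than the treatments, and the log2 fold change was -0.25 ± 0.074 (edgeR adjusted p = 0.0390). The other 5 tested plexins ranged from -0.45 (PLXNA4, at most 12 counts in a library) to 0.20 (PLXNC1) and did not pass.

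Of the 18 tested semaphorins 1 fell and none rose, near the 3.44% and 6.13% of all genes called lower and higher. SEMA4B, a membrane-bound semaphorin, had 57.4 CPM (DMSO) and 44.9 CPM (E2) in A4 and 49.3 CPM and 38.4 CPM in B212. Both E2 libraries were below both DMSO libraries, and it fell by 0.36 on the log2 scale (SE 0.075, edgeR adjusted p = 0.00672). SEMA3C had 413 and 393 CPM in A4 and 189 and 141 CPM in B212. Its log2 fold change of -0.24 ± 0.080 missed the threshold (edgeR adjusted p = 0.0622), and the ratio was -0.070 in A4 and -0.42 in B212. SEMA3A had 374 and 390 CPM in A4 and 387 and 373 CPM in B212, with a log2 fold change of 0.0046 ± 0.072 (edgeR adjusted p = 0.976). The remaining tested semaphorins ranged from -0.37 (SEMA3E) to 0.15 (SEMA7A). Neither neuropilin passed: the values of NRP1 and NRP2 were 0.62 ± 0.33 and 0.27 ± 0.30.

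Of the netrin receptors, NEO1 and UNC5B fell, and so did NTNG1, a membrane-anchored netrin G gene apart from the secreted netrins. NEO1 had 56.1 CPM (DMSO) and 45.7 CPM (E2) in A4 and 49.97 CPM and 42.6 CPM in B212, so the E2 libraries were below the DMSO libraries, with a log2 fold change of -0.26 ± 0.075 (edgeR adjusted p = 0.0329). UNC5B, a repulsive netrin receptor, had 9.01 and 6.36 CPM in A4 and 4.84 and 3.42 CPM in B212. The E2 library of A4 lay above both B212 libraries, while the ratio was -0.50 in each tag, and the fitted log2 fold change was -0.50 ± 0.12 (edgeR adjusted p = 0.0137). NTNG1 had 103 and 60 counts in A4 and 309 and 174 counts in B212. That is 1.41 and 0.732 CPM in A4 and 3.62 and 2.37 CPM in B212, with a log2 fold change of -0.74 ± 0.18 (edgeR adjusted p = 0.0157). The ligand NTN1 had 20.1 and 17.1 CPM in A4 and 21.9 and 21.2 CPM in B212 and did not pass (-0.14 ± 0.088, edgeR adjusted p = 0.330). UNC5C, at -0.42 ± 0.14, and NTN4, at -0.29 ± 0.14, did not pass either.

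**Figure D2:**
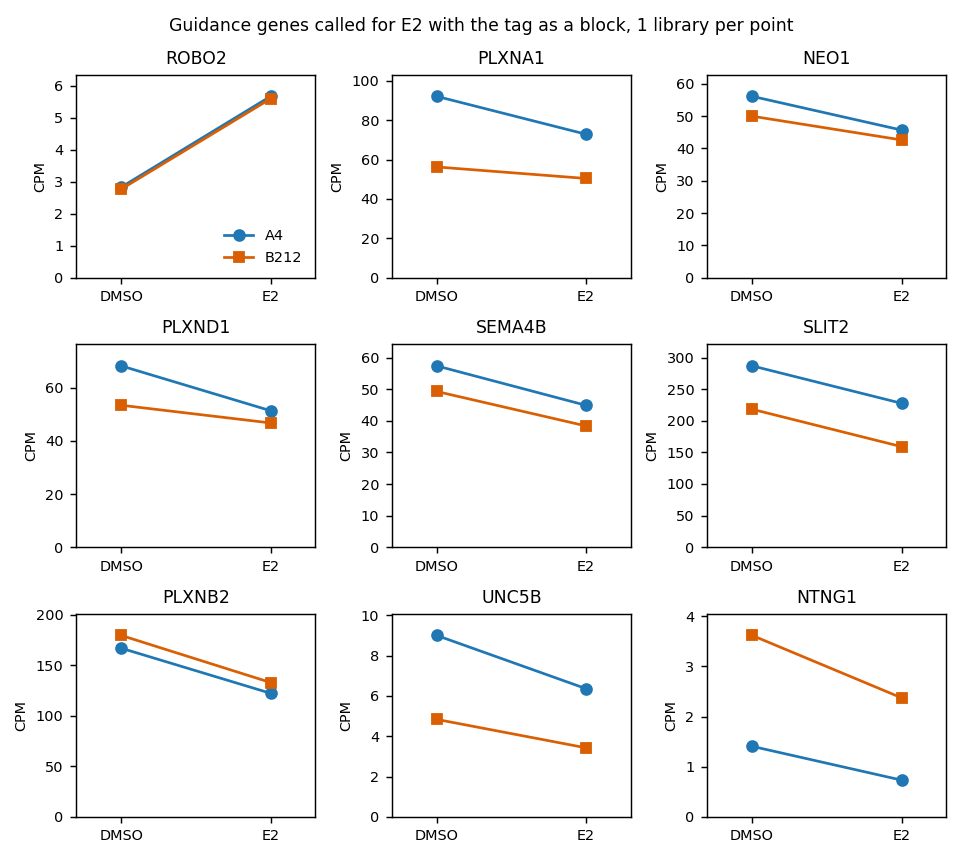
CPM with DMSO and with E2 for the 9 guidance genes called with the tag as a block, 1 library per point, joined within a tag (blue circles A4, orange squares B212); each vertical axis starts at 0. ROBO2 goes up in both tags from 2.83 and 2.77 CPM to 5.67 and 5.59 CPM, and the other 8 genes go down in both.

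Across the 41 tested genes, 25 were lower with E2 in both tags, 6 were higher in both, 9 moved in opposite directions and 1 (ROBO3) had no ratio in B212. Of all genes tested, 36.8% were lower in both. The median log2 fold change of the 41 was -0.17 with no block and -0.16 with the block, beside -0.0081 for all genes under either fit. By tag, the median of the 41 was -0.21 in A4 and -0.12 in B212. With no block, no gene passed. Of the 41, 10 had a positive log2 fold change in that fit, and 14 to 17 had one when 1 library was left out. Among the 13 genes called with the block or most abundant in their family, 6 turned sign when a library was left out. PLXNA1, UNC5B and NTNG1, which are called with the block, were among these 6. The fits without a library had no tag term, so the difference between the tags enters their values. A turn of sign there cannot be told apart from that difference. UNC5B, for example, had a ratio of -0.50 in each tag, while its log2 fold change between the tags was -0.90. Without the A4 DMSO library the log2 fold changes were 0.50 (SEMA3C), 0.13 (PLXNA1), 0.077 (ROBO1) and 0.017 (UNC5B). Without the B212 E2 library they were 0.39 (SEMA3C) and 0.040 (ROBO1), without the B212 DMSO library 0.13 (NTNG1) and -0.37 (NRP1), and without the A4 E2 library -2.96 (NRP1).

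**Figure D3:**
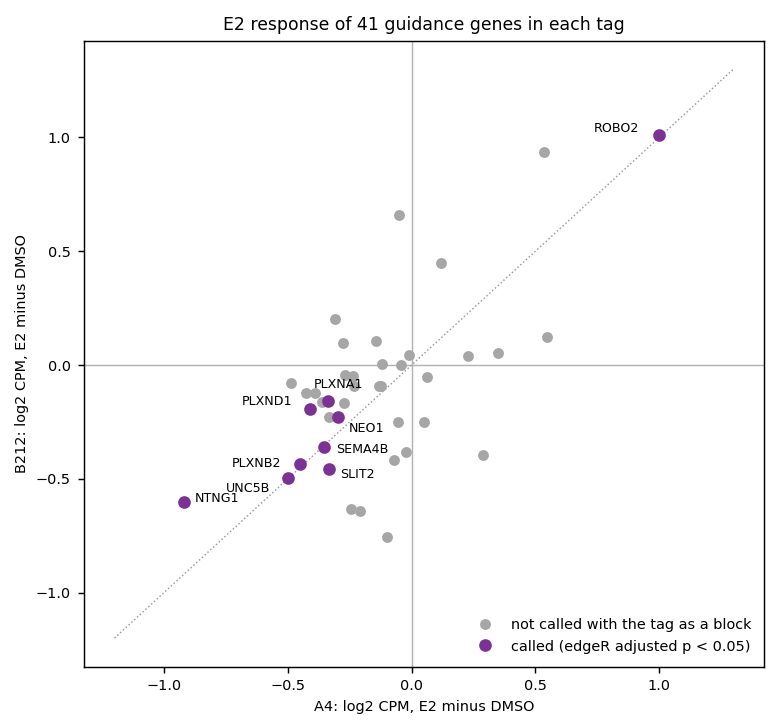
Difference in log2 CPM (prior count 2), E2 minus DMSO, in A4 (horizontal) and B212 (vertical) for the 41 tested guidance genes; purple points passed the edgeR test with the tag as a block, and the dotted line marks equal values. ROBO2 stands at 1.00 in A4 and 1.01 in B212, and the 8 called genes that fell lie in the lower left.

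Markers of other cell types moved with E2 as well. With the tag as a block, COL1A1, a stromal collagen, was called lower (127.8 to 92.4 CPM in A4, 42.4 to 34.5 CPM in B212, log2 fold change -0.39, edgeR adjusted p = 0.00394), and the other 3 tested stromal markers were not called. Both tested endothelial markers were called lower, VWF at -0.49 (edgeR adjusted p = 0.0441) and CLDN5, with 3 to 40 counts per library, at -1.65 (edgeR adjusted p = 0.0407), as were 2 of the 7 epithelial markers, KRT18 (-0.27) and PAX8 (-0.25). None of the tested immune and neuronal markers was called, and ALPP was called higher (0.52, edgeR adjusted p = 0.00697). DCN and LUM had at most 5 counts in a library and PECAM1 none. The part of these changes in the guidance genes that fell was not tested.

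Transcript length and GC content moved with these values. The median transcript of the 41 genes was 6265 bases long with 57.2% GC, against 3292 bases and 48.8% for all genes tested. When a smooth trend on length and GC was removed from each library and the tag was kept as a block, the median of the 41 was -0.038, and 5 genes were called, 1 higher and 4 lower, beside 4.81% of all genes and 1.67% called lower. ROBO2 (1.04, edgeR adjusted p = 0.000911), SLIT2 (-0.35, 0.00557), PLXNB2 (-0.24, 0.0335) and NTNG1 (-0.75, 0.0283) kept their calls, and SEMA3C gained one (-0.28, 0.0436). NEO1, PLXNA1, PLXND1, SEMA4B and UNC5B lost theirs, with edgeR adjusted p from 0.0571 (SEMA4B) to 0.740 (PLXNA1). Of the cell type markers called with the block, KRT18 (-0.29, edgeR adjusted p = 0.0113) and ALPP (0.62, 0.00377) kept their calls. COL1A1 (edgeR adjusted p = 0.0680), VWF (0.223), CLDN5 (0.0778) and PAX8 (0.191) lost theirs. The part of length and GC in the calls that were lost was not tested further.

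**Figure D4:**
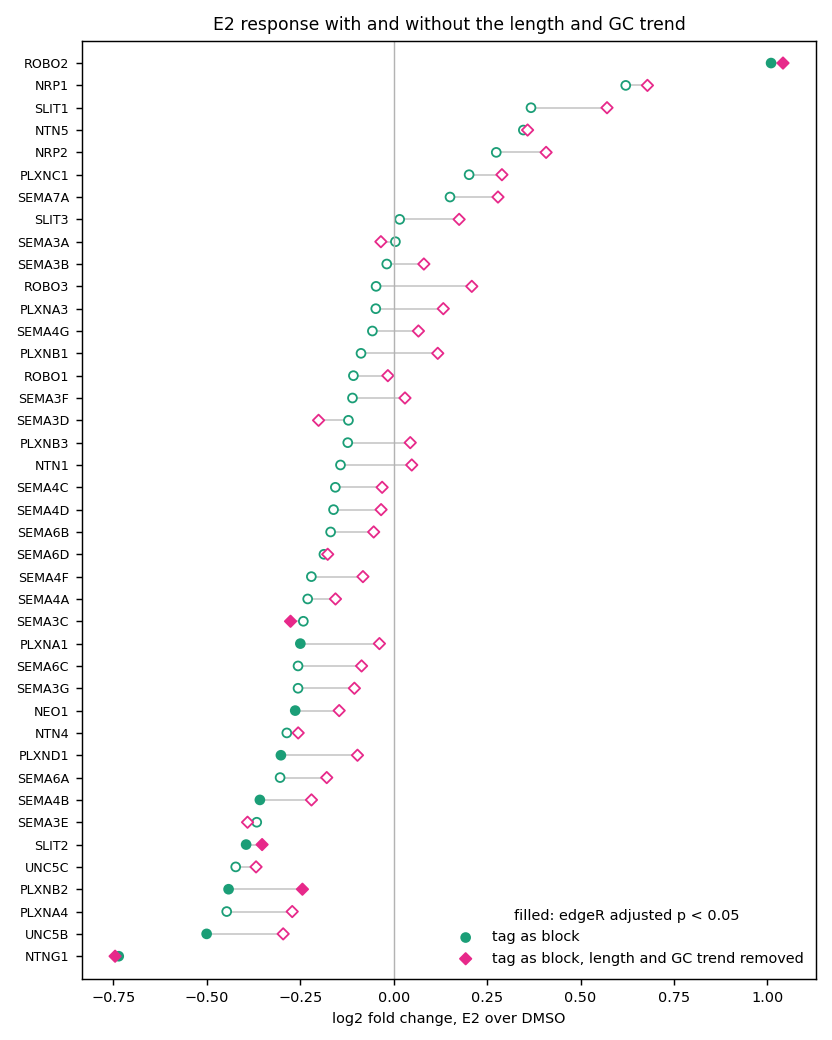
Log2 fold change, E2 over DMSO, for the 41 tested guidance genes with the tag as a block (green circles) and after the further removal of a trend on length and GC (pink diamonds); filled symbols passed the edgeR test in that fit. Most negative values move toward 0 when the trend is removed, while ROBO2, NTNG1, SLIT2 and PLXNB2 stay filled in both.

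Other genes of the pathway were read from lists of partners (further ligands, coreceptors and sheddases) and of intracellular effectors. Neither list had a gene called without the block (0 of each by edgeR), and 0 partners and 1 effector had an unadjusted p under 0.05. Once the tag was blocked, 9 of 38 tested partners were called, 1 higher and 8 lower, and 4 of 60 tested effectors, 1 higher and 3 lower, beside the 9.56% of all genes. The partners that fell were ITGB4 (-0.60), ADGRL3 (-0.45), ITGA3 (-0.41), FLRT2 (-0.30), ADAM10 (-0.30), PTPRS (-0.28), ERBB2 (-0.27) and SDC3 (-0.27), as log2 fold changes. ERBB2 encodes a receptor kinase that associates with B plexins, ADAM10 a protease that sheds guidance receptors, and FLRT2 a ligand of UNC5 receptors. ITGB4 had 215 and 147 CPM in A4 and 166 and 105 CPM in B212, and its edgeR adjusted p was 5.24e-05. PLXDC2, a plexin-domain membrane protein that is not itself a plexin, rose by 0.30. The effectors that fell were DPYSL2 (-0.32), a mediator of semaphorin 3A signals, MYO9B (-0.32) and SRGAP2 (-0.30), a SLIT-ROBO GTPase-activating protein, and NCK1 (0.33), an adaptor that binds ROBO and DCC tails, rose. With the trend removed, 6 partners and 1 effector were called, beside 4.81% of all genes. ITGB4, ADGRL3, FLRT2, ADAM10, PLXDC2 and DPYSL2 were still called and FLRT3 was gained (-0.34). ITGA3 (-0.24, edgeR adjusted p = 0.0520), ERBB2 (-0.12, 0.218), SDC3 (-0.087, 0.400), PTPRS (-0.079, 0.456), MYO9B (-0.11, 0.225), SRGAP2 (-0.19, 0.0947) and NCK1 (0.12, 0.255) were no longer called.

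The second comparison asked how the tags differed, with treatment as a covariate. The DMSO and E2 libraries of a tag stood in for its replicates, so these p-values do not measure how much clones vary. SEMA3C, NRP1, SEMA6A, SEMA7A, UNC5B and PLXNA1 were lower in B212 than in A4, and SEMA4A, SEMA3D, NTNG1 and PLXNA3 were higher. Over the family, edgeR's quasi-likelihood test called 28 of the 41 genes at an adjusted p under 0.05, 11 higher and 17 lower in B212, beside 51.0% of all genes tested (25.2% higher, 25.8% lower). With library sizes alone as the scaling, which moves the median of all genes by 0.067, the split was 13 higher and 13 lower of 26, beside 50.9% of all genes under that scaling (30.5% higher, 20.4% lower). The median absolute log2 fold change of the 41 was 0.45, against 0.28 for all genes, and 11 of the 41 were called with a change of at least 1, 4 higher and 7 lower, beside 11.0% of all genes. In all, 4 of the 41 (NRP1, ROBO3, SEMA6D and PLXNA4) passed the low-count filter only through the tag in which they were high, so for them a call was built in, and they are among the 28 and the 11. When at least 10 counts were asked in every library, which leaves these 4 out, 24 of 37 genes were called beside 51.9% of all genes, and 7 with a change of at least 1 beside 8.70%. The median absolute change was then 0.30, against 0.26 for all genes.

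Among the secreted semaphorins, SEMA3C was the abundant gene that differed most. Its 413 and 393 CPM in A4 lay far above its 189 and 141 CPM in B212, and the log2 fold change, B212 over A4, was -1.30 ± 0.081 (edgeR adjusted p = 5.38e-11). SEMA3D went the other way, with 2.13 and 2.21 CPM in A4 and 5.05 and 4.24 CPM in B212, a log2 fold change of 1.09 ± 0.15 (edgeR adjusted p = 4.08e-06). SEMA3E, at 47 and 49 counts in A4 and 29 and 14 in B212, had a log2 fold change of -1.23 ± 0.34. SEMA3F (-0.22) was slightly lower and SEMA3B (0.20) slightly higher, and SEMA3A did not pass (-0.0098 ± 0.072, edgeR adjusted p = 0.923; 0.057 with library sizes alone), although it was called after a length and GC trend was taken out.

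The membrane-bound semaphorins also split. SEMA4A, known from immune cells, had 3.04 and 2.999 CPM in A4 and 9.58 and 7.35 CPM in B212, a log2 fold change of 1.48 ± 0.13 (edgeR adjusted p = 1.18e-08). SEMA6A had 2.66 and 1.97 CPM in A4 against 1.10 and 1.01 CPM in B212 (-1.13 ± 0.19, edgeR adjusted p = 6.16e-05). SEMA7A, which is anchored by a lipid and binds PLXNC1 and integrins, had 1.57 and 1.84 CPM in A4 and 0.808 and 0.832 CPM in B212 (-1.05 ± 0.21, edgeR adjusted p = 0.000380). In each of these 3 genes the libraries of the tags did not overlap. SEMA6D had 2 and 1 counts in A4 and 21 and 17 in B212, a 12.4-fold ratio of summed counts with a 95% interval of 3.93 to 62.8 that covers counting error only. SEMA6B (0.67) and SEMA6C (0.53) were higher in B212, SEMA4D (0.21) slightly so, and SEMA4B (-0.22) and SEMA4F (-0.30) were lower.

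Receptors differed in both directions. NRP1 had 77 and 126 counts in A4 and 2 and 5 in B212, a 29.6-fold higher level in A4 by summed counts (95% interval 14.1 to 74.6, counting error only). NRP2, at 31 to 61 counts per library, had a log2 fold change of -0.72 ± 0.30 (edgeR adjusted p = 0.0469), a call that DESeq2, limma-voom and both other scalings lost. PLXNA1 had a log2 fold change of -0.62 ± 0.074 (edgeR adjusted p = 8.35e-07) and UNC5B of -0.90 ± 0.12 (edgeR adjusted p = 3.80e-06). PLXNA4 had 12 and 11 counts in A4 against 3 and 1 in B212, 5.88-fold by summed counts (95% interval 2.01 to 23.4). ROBO3 had 12 and 13 counts in A4 and 0 in B212, at least 8.51-fold higher in A4 against a floor of 3 counts over both B212 libraries. ROBO1 (-0.33) and PLXND1 (-0.25) were modestly lower. PLXNA3, with 21.9 and 17.7 CPM in A4 and 25.7 and 29.6 CPM in B212, was higher by 0.48 ± 0.10 (edgeR adjusted p = 0.000499), and PLXNB1 was higher by 0.22. ROBO2 was not called (-0.025 ± 0.13, edgeR adjusted p = 0.894; 0.045 with library sizes alone), and neither were PLXNB2 (0.11) and NEO1 (-0.13). With library sizes alone PLXNB2 was called higher (0.18, edgeR adjusted p = 0.0363), and NEO1 was called lower after a length and GC trend was taken out (-0.15, edgeR adjusted p = 0.0341).

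Of the remaining ligands, SLIT2 was lower in B212, at -0.46 ± 0.071 (edgeR adjusted p = 2.12e-05), and SLIT3 did not pass (0.034 ± 0.069). NTNG1 was higher by 1.51 ± 0.18 (edgeR adjusted p = 1.00e-06). NTN4 was lower (-0.46) and NTN1 higher (0.22), the latter at an edgeR adjusted p of 0.0456 that DESeq2, limma-voom, DESeq2 size factors and either other filter did not keep. DESeq2 called 16 of the 41, near its 35.5% of all genes. It also lost NTN4, PLXNA4, PLXNB1, SEMA3B, SEMA3E, SEMA3F, SEMA4B, SEMA4D, SEMA6B and SEMA6C. In edgeR, library sizes alone also lost PLXND1, SEMA3F and SEMA4B, and DESeq2 size factors also lost PLXNB1 and SEMA3B.

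**Figure D5:**
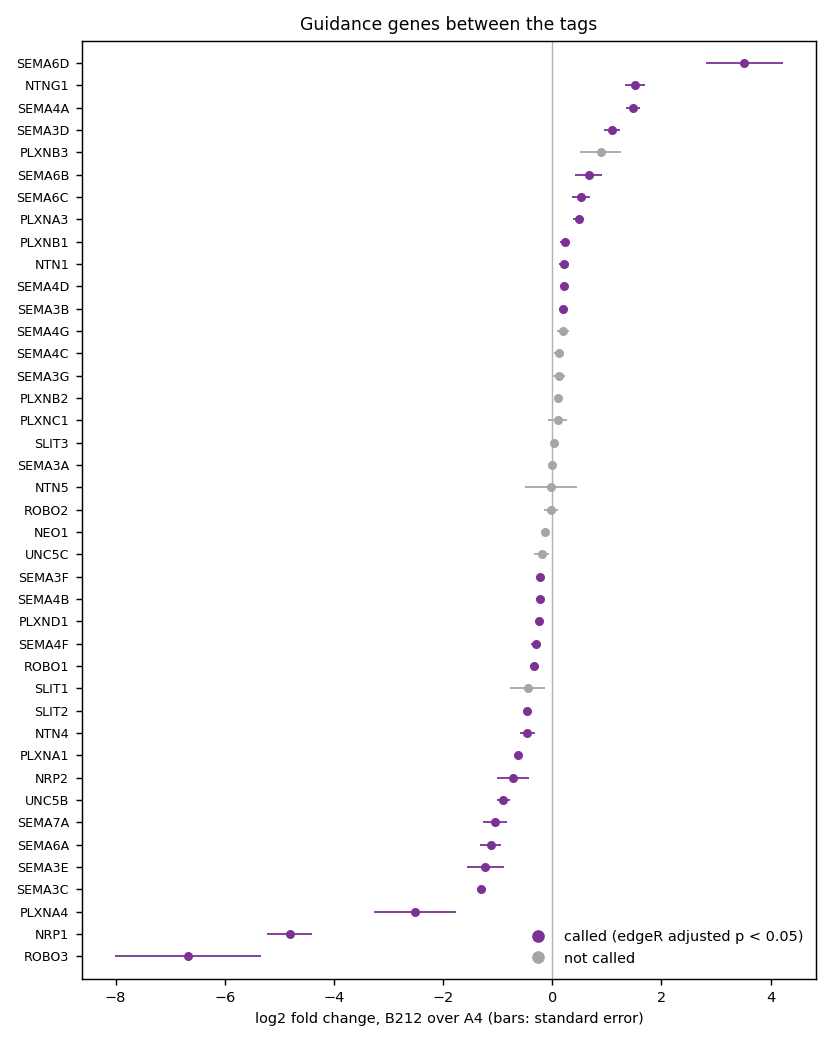
Log2 fold change, B212 over A4, with its standard error for the 41 tested guidance genes, in order of value; purple points passed edgeR's quasi-likelihood test. SEMA6D, NTNG1, SEMA4A and SEMA3D lie at 1.09 or more, SEMA3C at -1.30, and the low-count genes NRP1 and ROBO3 at the far left, where ROBO3 has 0 counts in B212 and its plotted value is no bound.

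Partners and effectors differed between the tags as well: 31 of 38 partners were called, 14 higher and 17 lower, and 30 of 60 effectors, 17 higher and 13 lower, beside the 51.0% of all genes. The largest fitted changes among the called genes were those of FLRT3, SRGAP3 and KDR for genes higher in B212 and DSCAML1, PLXDC2 and BOC for genes lower. DSCAML1 (19 and 17 counts in A4, 2 and 1 in B212) passed the filter only through A4, so its call was built in. FLRT3, a ligand of UNC5 receptors that also binds ROBO1, had 2.85 and 2.32 CPM in A4 and 22.7 and 18.4 CPM in B212 (log2 fold change 2.99 ± 0.11, edgeR adjusted p = 1.36e-14). SRGAP3, a SLIT-ROBO GTPase-activating protein, had 4.36 and 4.50 CPM in A4 and 18.8 and 22.8 CPM in B212 (2.23 ± 0.11, edgeR adjusted p = 7.00e-13). PLXDC2 had 243 and 265 CPM in A4 and 39.3 and 55.0 CPM in B212 (-2.45 ± 0.084, edgeR adjusted p = 3.84e-15). BOC, a cell-surface relative of the ROBO and DCC group, had 71.1 and 61.3 CPM in A4 and 16.6 and 18.7 CPM in B212. DSCAML1 was at or under 0.259 CPM and KDR, a VEGF receptor that binds neuropilins, at or under 0.609 CPM in every library.

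Markers of several cell types moved with the tag. The stromal markers summed to 131 CPM (DMSO) and 94.6 CPM (E2) in A4 and 43.3 CPM and 35.4 CPM in B212. COL1A1 made up 128 and 92.4 CPM of this sum in A4 and 42.4 and 34.5 CPM in B212. Of the 7 stromal markers, 4 passed the filter. COL1A1 (log2 fold change -1.51), COL1A2 (-1.52) and COL3A1 (-2.40) were called lower in B212, and PDGFRA was not called. KRT19 (1.01), MUC1 (0.62), PAX8 (0.61), CDH1 (0.50), KRT8 (0.26), VWF (0.58), CLDN5 (1.94) and SNAP25 (1.09) were called higher. ALPP (-1.05) and TUBB3 (-0.49) were called lower, and the other tested markers were not called. CLDN5 passed the filter only through B212, so its call was built in. In bulk RNA, fewer cells of a type and less RNA per cell cannot be told apart. The part of these marker differences in the guidance genes called between the tags was not tested.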

How the data were processed

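The unit deposited by the authors is the raw read count per gene symbol, and per the submitters' processing notes HISAT2, SAMtools, featureCounts and DESeq2 were used with the build hg19; the annotation, settings and strand mode are not given in the sources used here. Libraries were poly(A)-selected and stranded, from 500 ng RNA each, per the labels' protocols. The table holds 4 further library columns whose names fit none of the samples, and these were not used. Columns were placed in the DMSO or E2 group by name.

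Genes were kept by filterByExpr (minimum count 10) in edgeR 4.0.16, leaving 15599, and scaled by TMM. The main E2 fit had no block; the comparison of tags adjusted for treatment. Both used quasi-likelihood tests with Benjamini-Hochberg adjustment over all genes and a threshold of 0.05. Standard errors are the absolute fold change over the root of F. The tag in the column names pairs the libraries: deviations of same-tag libraries from their group means had a Pearson r of 0.871 across genes (a single independent value), so the blocked fit is printed beside the main one. Transcript length and GC came from 1 GENCODE 29 transcript per symbol, found for 93.5% of tested genes; genes without one were left uncorrected. Smooth trends were fitted with mgcv 1.9.3. DESeq2 1.42.0, limma 3.58.1, R 4.3.3, Python 3.11.15 and matplotlib 3.10.9 were also used.

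Counts were simulated for 15599 genes, with 200 well-counted genes changed by 1 on the log2 scale. For E2, the tag differences were set as measured. The E2 fit recovered 0 of the 200 without the block and 200 with it (13 false calls). The tag fit, simulated apart, recovered 200 (16 false calls). There only the 200 genes differed between the tags and treatment had no effect, whereas 51.0% of all genes were called in the data. The simulated spread between libraries was the same for every gene, near the 5.99% that the blocked fit estimated. Changes below 1, the size of most E2 calls here, were not simulated, so their recovery is not known. All genes of the guidance families were accounted for, and each gene that was called, or was the most abundant of its family per kilobase, was given with its values; no gene was at 10 CPM or more in 1 tag and under 1 CPM in the other. The families and lists were chosen with earlier results of these data known. The lists, of 45 partners and 66 effectors, came from general knowledge, and 1 partner (HJV) had no match in the table.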

Additional observations from a re-analysis of the deposited data

Results flagged for a closer look

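With E2, 9 of the 41 tested guidance genes had ratios of opposite sign in the tags. With 1 library for each tag and treatment, no such difference was tested. The differences below are the log2 ratio in B212 minus that in A4. PLXNA3 stood at -0.31 (A4) and 0.20 (B212), a difference of 0.51. PLXNB1 had -0.28 and 0.097, a difference of 0.37, and SEMA3B -0.14 and 0.11, a difference of 0.25. SEMA3D had 0.050 and -0.25, a difference of -0.30. PLXNB3 (difference -0.68) and NTN5 (0.71) rested on 11 to 42 counts per library. SEMA3A (difference -0.12), SEMA4G (0.13) and SLIT3 (0.057) had smaller differences than the other 6 genes.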

How the results depend on the processing

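All alternatives were planned. For E2, 0 guidance genes were called with no block under DESeq2 size factors, DESeq2 and with each library left out. The replicate block gave 9, beside 9.56% of all genes. With it, removal of the length and GC trend gave 5 (4.81% of all genes), DESeq2 size factors 7 (4.60%), library size only 11 (10.8%), no filter 11 (8.66%), at least 10 counts in every library 10 (10.6%), DESeq2 4 (3.60%, with 24 of 41 given no adjusted p) and limma-voom 8 (7.30%). In the same order the partners and effectors went from 0 to 13, then 7, 9, 15, 14, 13, 7 and 11. The median of the 41 genes, -0.17, became -0.038 with the replicate block and the trend removed, and -0.049 to -0.15 with libraries left out. Leaving out a library with no block leaves 1 library in an arm, assumed to vary like the others, and unbalances the tags. It reversed 6 of the 13 genes called with the block or most abundant in their family. Their log2 fold changes ranged from -1.11 to 0.50 (SEMA3C), -0.58 to 0.13 (PLXNA1) and -2.96 to 5.01 (NRP1). For ROBO1 the range was -0.29 to 0.077, for NTNG1 -1.78 to 0.13 and for UNC5B -1.03 to 0.017. With the replicate block and the trend removed, NTN1 was the 1 gene of these 13 that reversed, to 0.048. Over the 41, positive log2 fold changes went from 9 with the block to 16 with the trend also removed. The cause was not tested.

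Between the tags, the 28 genes became 16 with DESeq2 (35.5% of all genes), 15 with no treatment term (28.6%) and 11 when a size of at least 1 on the log2 scale was also asked, and the 61 partners and effectors became 31 with no treatment term. The median absolute change of 0.45 became 0.39 with library size only, 0.51 with no filter, 0.30 with at least 10 counts in every library, and 0.35 to 0.46 with libraries left out, which gives values without a test. None of the 28 reversed under these alternatives. Of the 50 genes, 49 and 37 were tested with no filter and with at least 10 counts in every library. Over all genes, the E2 calls went from 0 to 1492 with the replicate block and to 750 with the trend also removed, and the tag calls from 7950 to 4456 with no treatment term. Low counts limit NRP1, ROBO3, SEMA6D and PLXNA4 most.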

Other observations

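Some of the guidance genes lie next to each other in the RefSeq order of protein-coding genes, and neighbours had unlike values. ROBO2 and ROBO1 are adjacent on chromosome 3. ROBO2 had an E2 log2 fold change of 1.01 with the tag as a block and ROBO1 one of -0.11, whereas between the tags the values were -0.025 and -0.33. On chromosome 7 SEMA3E, SEMA3A and SEMA3D follow one another, and 3 other genes lie between SEMA3C and SEMA3E. Between B212 and A4 their log2 fold changes were -1.23 (SEMA3E), -0.0098 (SEMA3A), 1.09 (SEMA3D) and -1.30 (SEMA3C). SEMA3F and SEMA3B, on chromosome 3 with 3 genes between them, had -0.22 and 0.20. The differences between neighbours were not themselves tested.

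Exons of 13 of the 41 tested genes overlap exons of another gene in GENCODE 29, 10 of them on the opposite strand, and how such reads were counted is not known. Of these, SEMA4G overlaps MRPL43, PLXNA3 overlaps LAGE3, NTN5 overlaps SEC1P, and PLXNB3 and SLIT1 share exons with SRPK3 and the readthrough gene ARHGAP19-SLIT1 on their own strand. The 9 genes called for E2 had no such overlap.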
